A study of Mus musculus with 35 samples.

Results

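The S100, annexin and galectin genes described here are 9 of the 52636 genes in a table of read counts, chosen by symbol: S100a4, S100a6, S100a10, S100a11, Anxa1, Anxa2, Anxa6, Lgals1 and Lgals3. RNA was sequenced from CD8 T cells that had been sorted by flow cytometry from C57BL/6 mice. All mice carried 1 copy of a Cre transgene (labelled Lcre+/-), with Dot1L alleles that were wt/wt (WT), fl/wt (Het) or fl/fl (KO). The labels do not spell out which promoter drives Cre, give no ages, and do not state whether replicates came from different animals. By sex-linked transcripts each group held male and female libraries, so its libraries came from more than 1 animal. P-values describe the spread among these libraries. Dot1L is the methyltransferase of lysine 79 of histone H3. From each genotype came CD8 single positive thymocytes and a pair of spleen populations, of which the naive one was sorted as CD44- and the memory one as CD44+. Every group has 4 libraries except WT thymus with 3.

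S100 proteins are small EF-hand calcium sensors that bind and regulate other proteins. Annexins bind acidic phospholipids of membranes when calcium rises and take part in membrane repair, vesicle traffic and the link between membrane and actin. Galectins bind beta-galactoside sugars on glycoproteins and can cross-link surface receptors of T cells. In CD8 T cells, several of these genes are known to be expressed at higher levels in effector and memory cells than in naive cells.

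The 35 libraries held 4809509 to 16879636 counts (median 10406516), and levels are given as CPM, the counts relative to the scaled total of each library. Dot1l itself was not lower in KO libraries, at 74.9 to 78.8 CPM against 61.1 to 70.4 in WT thymus and 43.8 to 48.4 against 38.4 to 52.6 in memory cells. The log2 fold change of Dot1l from WT to KO was 0.20 ± 0.08 (SE) in thymus (adjusted p = 0.089), 0.17 ± 0.08 in naive cells (0.16) and 0.01 ± 0.08 in memory cells (0.96). Reads were counted over whole genes and the labels do not say which part is deleted, so this does not check the deletion. The 9 fixed CD8 T cell markers summed to 1243 to 1790 CPM in every library. Lck, with 356689 counts in all beside 3220 for Cd8a and 2012 for Cd8b1, made up most of this sum. Cd8a, Cd3d and Trac had means of only 92, 21.3 and 64.5 counts per library beside 2483 for Cd3e, so a low count in this table, including those of S100a4 and S100a11 below, cannot be read as a low transcript level.

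All 9 genes passed the filter on low counts. Without the KO libraries, S100a4, S100a11 and Anxa1 would not have passed, so counts over all 9 genes are descriptions. Numbers of genes called among the other 6 are given beside them. S100a4 (chr3:90603771-90606045) and S100a6 (chr3:90612882-90624181) are neighbours on the plus strand of chromosome 3. S100a11 (chr3:93520488-93526287) and S100a10 (chr3:93555080-93564643) form a second pair further along it. The annexin genes are on chr19:20373428-20390944 (Anxa1, minus strand), chr9:69453620-69491795 (Anxa2, plus strand) and chr11:54979108-55033445 (Anxa6, minus strand). Lgals1 lies on chr15:78926725-78930465 and Lgals3 on chr14:47367751-47386160, both on the plus strand (all GRCm38, GENCODE M21).

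Promoters are shown for S100a4, S100a6 and Anxa2, which were higher in KO cells of every subset. Lgals1 and Lgals3 were higher in every subset too, and are not printed. The promoter of S100a11, which was not called between KO and WT cells, is shown to set core elements side by side. The promoter table used here, from RefSeq (GRCm38.p6), was matched for 6 of the 9 genes, and promoters of S100a10, Anxa6 and Lgals1 were not used here. Each line is the 250 bases before the RefSeq start site, 5′ to 3′ on the gene's strand, with motif matches in capitals, searched on both strands. The core box for TATA-binding protein was searched as TATAAA. Sites of the Sp1 type were searched as GGGCGG and those of the AP-1 type as TGANTCA, where N is any base. Sites of the Runx family were searched as TGTGGT and those of the T-box family as AGGTGTGA. No matches overlapped one another.
S100a4 promoter (chr3:90603520-90603769, plus strand): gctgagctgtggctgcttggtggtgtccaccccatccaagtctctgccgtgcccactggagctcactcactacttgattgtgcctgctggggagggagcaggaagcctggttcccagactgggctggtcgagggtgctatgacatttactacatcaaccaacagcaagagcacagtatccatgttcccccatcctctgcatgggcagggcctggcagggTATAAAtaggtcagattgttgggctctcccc
S100a6 promoter (chr3:90612644-90612893, plus strand): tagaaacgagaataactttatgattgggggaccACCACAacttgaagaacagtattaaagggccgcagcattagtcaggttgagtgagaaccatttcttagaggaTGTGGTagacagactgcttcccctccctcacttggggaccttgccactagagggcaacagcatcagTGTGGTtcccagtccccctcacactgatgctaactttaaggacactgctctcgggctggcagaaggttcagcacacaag
Anxa2 promoter (chr9:69453433-69453682, plus strand): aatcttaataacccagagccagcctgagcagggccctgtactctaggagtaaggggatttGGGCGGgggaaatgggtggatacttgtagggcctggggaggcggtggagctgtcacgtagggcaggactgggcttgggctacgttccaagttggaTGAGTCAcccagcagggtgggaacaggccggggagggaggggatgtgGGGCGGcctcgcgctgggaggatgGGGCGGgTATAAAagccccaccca
S100a11 promoter (chr3:93520246-93520495, plus strand): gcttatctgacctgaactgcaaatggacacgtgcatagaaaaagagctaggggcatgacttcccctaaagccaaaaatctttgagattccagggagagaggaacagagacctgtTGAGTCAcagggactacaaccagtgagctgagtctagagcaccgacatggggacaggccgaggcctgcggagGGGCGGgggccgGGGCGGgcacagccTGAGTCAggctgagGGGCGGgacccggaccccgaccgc
S100a4 had a TATAAA at position -31 and Anxa2 at -17, counted to the first base of the match with -1 next to the start, and Anxa1, not printed, had one at -32. This motif occurred in 12.4% of 32851 RefSeq promoters of the same length. S100a6 had no TATAAA and held TGTGGT 3 times, at -217, -145 and -79, a motif of 14% of promoters. Anxa2 and S100a11 each held GGGCGG 3 times (32.7% of promoters) and TGANTCA, once in Anxa2 and 2 times in S100a11 (6.75% of promoters). Lgals3 held 1 GGGCGG and none of the other motifs. AGGTGTGA, present in 1.12% of promoters, matched in none of the 6. No motif was common to S100a4, S100a6 and Anxa2, and a match says only that the letters are there.

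**Figure D1:**
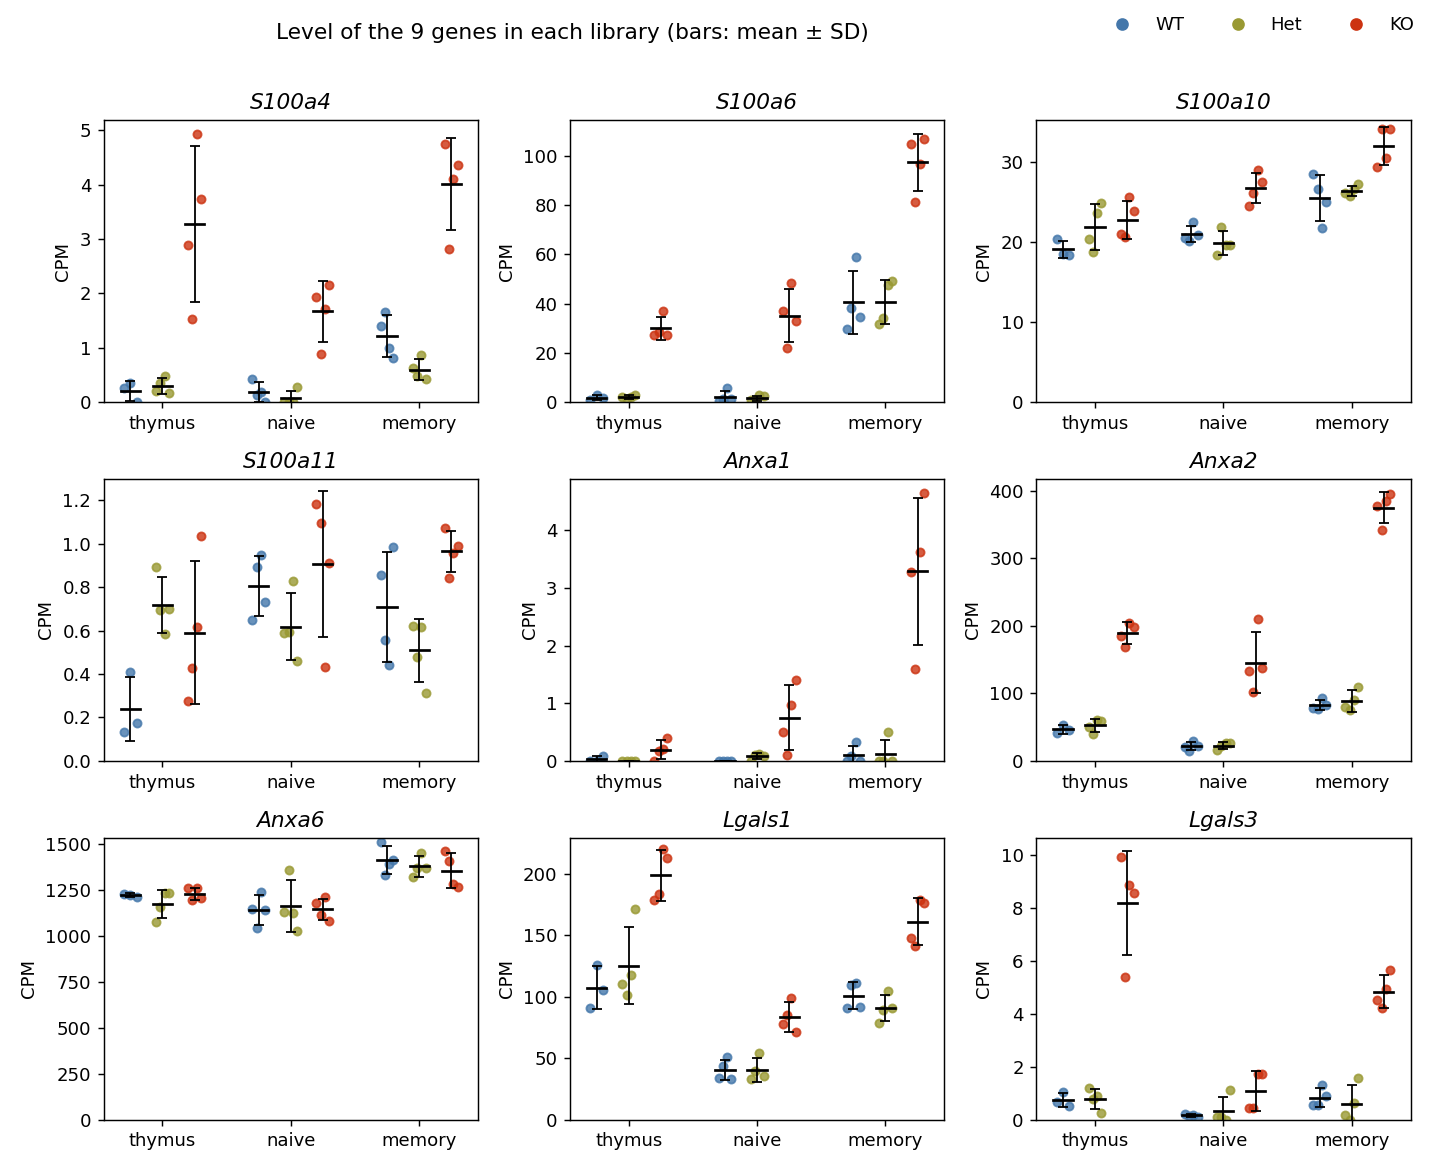
CPM (y axis, linear, from 0) of each gene in each library by subset (x axis), coloured by genotype, with bars for the group mean ± SD cut at 0 where they would fall below it. KO libraries of S100a6, Anxa2 and Lgals1 sit above all WT libraries of the same subset, and the levels of Anxa6 overlap between genotypes in every subset.

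The first question was which of these genes differ between KO and WT cells of a subset. In thymus 5 of the 9 genes were higher in KO libraries and 0 lower, where 11.9% of the 10296 genes tested were higher and 6.77% lower. In naive cells 7 were higher and 0 lower (11.1% and 7.11% of all genes), and in memory cells 7 and 0 (12.8% and 9.32%). S100a4, S100a6, Anxa2, Lgals1 and Lgals3 were called in all 3 subsets, and S100a10 and Anxa1 in naive and memory cells. Among the 6 genes that pass the filter without KO libraries, 4, 5 and 5 were higher. All KO libraries lay above all WT libraries for 6 genes in thymus and for 7 in each spleen subset, where this held for 17.3%, 11.9% and 14% of all genes. The median log2 fold change over the 9 genes was 2.02, 2.71 and 1.27 in thymus, naive and memory cells, where that over all genes was 0.02, 0.00 and 0.01. Over the 6 genes that pass the filter without KO libraries it was 1.45, 1.87 and 0.97. In naive cells the median over the 9 genes stays at 2.71 with Anxa1 set to its bound, given below. In sorted bulk samples, more cells with a transcript and more RNA per cell cannot be told apart.

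In thymus S100a6 (calcyclin) measured 0.932, 2.85 and 1.64 CPM in the WT and 27.4, 28.25, 37.0 and 27.3 CPM in the KO libraries. In naive cells the WT libraries held 0.433, 1.28, 5.87 and 1.05 CPM and the KO libraries 36.8, 22.1, 48.4 and 32.9 CPM. In memory cells the values were 29.8, 38.3, 58.9 and 34.7 CPM in WT and 105, 81.2, 96.8 and 107 CPM in KO. The groups did not overlap in any subset, and WT naive replicate 3 was far above the other WT naive libraries while still below every KO library. The log2 fold change of S100a6 was 3.90 ± 0.44 for thymic, 3.80 ± 0.40 for naive and 1.27 ± 0.28 for memory cells (adjusted p = 1.96e-07, 4.88e-08 and 0.00109). Without WT naive replicate 3, the naive value was 5.11.

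S100a4 (fibroblast-specific protein, a partner of non-muscle myosin) was much lower in counts, with 537 in all libraries together. Its GENCODE exons share 302 of 584 bases with Gm42674 on the same strand, a gene with 0 counts, and how reads there were assigned is not given in the sources used here. The WT thymus libraries held 0.266, 0.349 and 0 CPM and the KO thymus libraries 2.89, 1.54, 4.94 and 3.75 CPM. Naive libraries held 0.433, 0.128, 0.189 and 0 CPM in WT and 1.94, 0.876, 1.72 and 2.15 CPM in KO, and memory libraries 1.40, 1.66, 0.988 and 0.807 CPM in WT and 4.76, 2.81, 4.10 and 4.37 CPM in KO. KO libraries of S100a4 lay above WT libraries in each subset with no overlap. Its log2 fold change was 3.87 ± 0.54 for thymic, 3.35 ± 0.61 for naive and 1.71 ± 0.37 for memory cells (adjusted p = 6.19e-07, 5.57e-05 and 0.000389). WT thymus replicate 2 held 6 of the 8 counts of S100a4 in its group, and without it the fitted value was 4.82 and was still called.

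S100a10 (p11, the partner of annexin A2) changed little beside its partner. In naive cells it measured 20.6, 20.2, 22.5 and 20.9 CPM in WT and 24.6, 26.2, 29.0 and 27.5 CPM in KO libraries. In memory cells it measured 28.6, 26.7, 21.7 and 25.1 CPM in WT and 29.4, 34.1, 30.6 and 34.1 CPM in KO libraries. The groups were separate in both subsets but close. The log2 fold change of S100a10 was 0.27 ± 0.11 for thymic (adjusted p = 0.077), 0.34 ± 0.10 for naive (0.0107) and 0.32 ± 0.10 for memory cells (0.0107). The naive call was lost without KO naive replicate 3 (adjusted p = 0.0557) and with centring on the mean log level (0.0966), and the memory call without WT memory replicate 3 (0.0689), with that centring (0.117) and without a filter on low counts (0.0503).

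S100a11 (calgizzarin) was at the edge of detection, with 260 counts in all and no more than 1.18 CPM in any library. Its log2 fold change was 1.17 ± 0.50 for thymic (adjusted p = 0.10), 0.15 ± 0.39 for naive (0.86) and 0.42 ± 0.37 for memory cells (0.49). A difference of S100a11 between KO and WT cells was not detectable at this depth.

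Annexin A2 binds membranes together with S100A10 and the large scaffold protein Ahnak. For Anxa2, WT thymus libraries held 40.6, 53.2 and 45.8 CPM and KO thymus libraries 185, 168, 205 and 198 CPM. Naive libraries held 20.8, 15.2, 29.0 and 22.7 CPM in WT and 134, 102, 210 and 138 CPM in KO, with KO replicate 3 highest. Memory libraries held 77.8, 76.3, 93.6 and 82.8 CPM in WT and 378, 342, 386 and 396 CPM in KO. The lowest KO library was above the highest WT library in each subset. Its log2 fold change was 2.02 ± 0.21 for thymic, 2.71 ± 0.21 for naive and 2.18 ± 0.19 for memory cells (adjusted p = 5.10e-08, 7.85e-11 and 4.54e-10).

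Anxa1 (annexin A1, or lipocortin, a ligand of formyl peptide receptors) was almost uncounted outside KO cells. WT naive libraries held 0 counts and KO naive libraries 33 counts together, at 0.506, 0.110, 0.968 and 1.41 CPM, which was at least 8.46-fold higher when WT is set to a floor of 3 counts over the group. In memory cells Anxa1 measured 0, 0.0924, 0.329 and 0 CPM in WT and 3.27, 1.59, 3.62 and 4.65 CPM in KO libraries, a log2 fold change of 4.97 ± 0.71 (adjusted p = 1.22e-06). WT memory replicate 3 held 3 of the 4 WT counts, and the call held without it. In thymus 10 counts in KO stood against 1 in WT, a ratio of 7.88 with an exact interval from 1.12 to 342 that covers counting error only, and this was not called (adjusted p = 0.22). The naive difference was called, with an adjusted p of 0.00174.

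Anxa6 (the annexin with a duplicated core, a regulator of membrane and cholesterol traffic) had the most counts per exon length of the 9, at 389 CPM per kilobase in WT naive cells beside 44.8 for Lgals1, 17.4 for S100a10 and 5.88 for Anxa2, an order of counts that may not be one of transcripts in this table. The log2 fold change from WT to KO was 0.01 ± 0.07 for thymic, 0.01 ± 0.06 for naive and -0.06 ± 0.06 for memory cells (adjusted p = 0.96, 0.97 and 0.59). With centring on the mean log level the memory value was -0.18 and was called lower (adjusted p = 0.0423). That centring put the median change of all genes from WT to KO at -0.09, -0.12 and -0.11 in the 3 subsets, and the share of higher among called genes from 63.7%, 61% and 58% to 40%, 34.5% and 35.2%. Under it S100a4, S100a6, Anxa2, Lgals1 and Lgals3 were still called higher in all 3 subsets.

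Lgals1 (galectin-1, a secreted dimeric lectin) showed a moderate and even difference. WT thymus libraries held 90.7, 126 and 106 CPM and KO thymus libraries 179, 184, 220 and 213 CPM. Naive libraries held 34.2, 43.3, 50.9 and 33.2 CPM in WT and 77.6, 85.3, 99.3 and 71.4 CPM in KO, and memory libraries 91.0, 110, 111 and 91.9 CPM in WT and 148, 141, 179 and 177 CPM in KO. The groups were separate in each subset. Its log2 fold change was 0.89 ± 0.18, 1.03 ± 0.17 and 0.67 ± 0.16 in thymus, naive and memory cells (adjusted p = 0.000466, 4.64e-05 and 0.00227).

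Lgals3 (galectin-3, which forms oligomers and lattices on the cell surface) was highest in KO thymus. There it measured 9.91, 5.38, 8.86 and 8.53 CPM against 0.666, 1.05 and 0.517 CPM in WT. In memory cells it measured 4.52, 4.22, 4.92 and 5.64 CPM in KO and 0.544, 0.554, 1.32 and 0.896 CPM in WT. Naive libraries were low in both, at 0.422, 0.438, 1.72 and 1.74 CPM in KO and 0.216, 0.128, 0.189 and 0.105 CPM in WT. KO libraries fell into a lower and a higher pair in naive cells, both above WT. The log2 fold change of Lgals3 was 3.36 ± 0.51 for thymic, 2.73 ± 0.84 for naive and 2.56 ± 0.48 for memory cells (adjusted p = 8.76e-06, 0.0195 and 9.00e-05). WT naive libraries held 5 counts of Lgals3 in all, and the naive call was lost without WT naive replicate 2 (adjusted p = 0.0528) or 4 (0.0651), without KO naive replicate 3 (0.0630) or 4 (0.0799), and without a filter on low counts (0.0503).

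**Figure D2:**
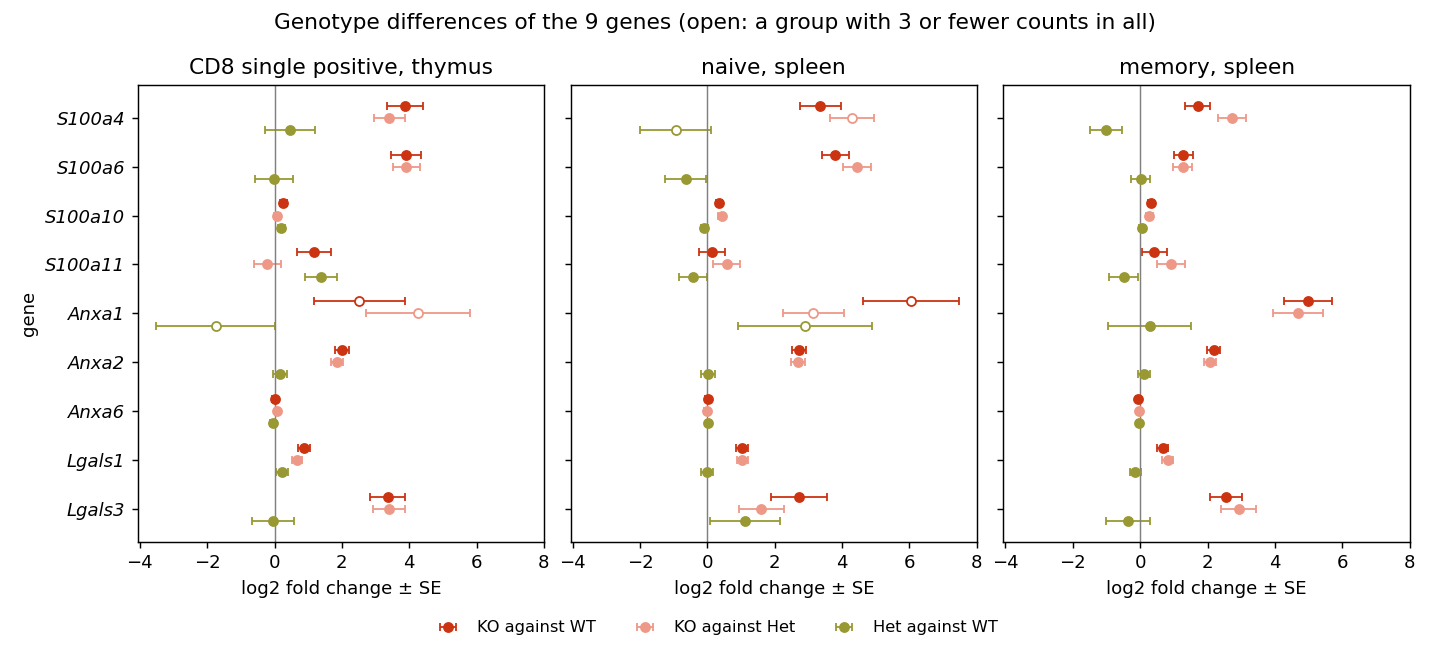
Log2 fold change ± SE (x axis, same scale in each panel) of each gene (y axis) between genotypes in thymus, naive and memory cells, with open symbols where 1 of the groups had 3 or fewer counts in all. Anxa2 lies between 1.85 and 2.71 for KO against WT and KO against Het, and at 0.16, 0.02 and 0.11 for Het against WT in thymus, naive and memory cells, while fitted values with open symbols are no bounds.

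The ratio of Anxa2 to S100a10, each in CPM per kilobase of exon, puts the unequal change of this pair in 1 number. This ratio of counts may not be one of transcripts in this table, and is read only between groups. It was 0.796 ± 0.143 (SD, n = 3) in WT and 2.70 ± 0.113 (n = 4) in KO thymus, 0.336 ± 0.0715 in WT and 1.75 ± 0.450 in KO naive cells, and 1.07 ± 0.233 in WT and 3.82 ± 0.418 in KO memory cells (n = 4 each). Het cells had 0.776 ± 0.0608, 0.368 ± 0.0842 and 1.09 ± 0.164. KO libraries lay above all WT and Het libraries of the same subset, and WT memory above WT naive libraries.

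**Figure D3:**
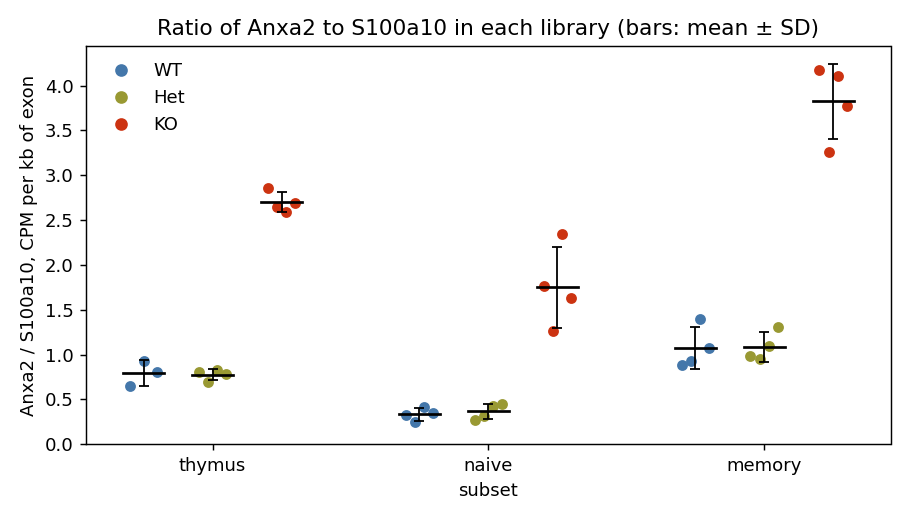
Ratio of Anxa2 to S100a10 in CPM per kilobase of exon (y axis, linear, from 0) in each library by subset (x axis) and genotype (colour), with group mean ± SD. The lowest KO naive library, at 1.26, is above the highest WT naive library, at 0.418.

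Het libraries, which keep 1 wild-type copy, were next set against both other genotypes, where KO against Het shares its KO libraries with KO against WT. Between Het and WT, 0 of the 9 genes were called in any subset by edgeR or by DESeq2, where edgeR called 0%, 0% and 0.00971% of all genes higher and 0% lower in thymus, naive and memory cells. At an unadjusted p under 0.05 there were 1, 0 and 1 members among 636, 275 and 527 genes, namely S100a11 in thymus and S100a4 in memory cells. S100a11 measured 0.892, 0.694, 0.583 and 0.701 CPM in Het and 0.133, 0.407 and 0.172 CPM in WT thymus libraries, which did not overlap (2.14% of all genes lay wholly above in this way), with an adjusted p of 0.78. S100a4 had a log2 fold change of -1.02 ± 0.48 in memory cells (adjusted p = 0.96).

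From Het to KO cells 6 genes were higher in each of thymic and naive cells, 7 in memory cells, and 0 lower, where 11.9%, 10.5% and 11.6% of all genes were higher and 7.28%, 6.5% and 8.59% lower. Of the 6 that pass the filter without KO libraries, these were 4, 4 and 5. S100a6 rose by 3.92 ± 0.40, 4.45 ± 0.42 and 1.26 ± 0.28 on the log2 scale and Anxa2 by 1.85 ± 0.19, 2.69 ± 0.20 and 2.08 ± 0.19. Lgals3 was not called in naive cells, at 1.60 ± 0.67 (adjusted p = 0.11), where Het replicate 4 held 1.10 CPM and the other Het libraries 0.0983, 0.0990 and 0 CPM. Without that library, which leaves 2 Het counts, it was called (adjusted p = 0.00205), as it was with DESeq2 (0.0382). The same library carried the 3 counts of S100a4 in Het naive cells, against 73 in KO, a ratio of 22.8 with an exact interval from 7.49 to 113. Anxa1 in thymus, with 10 counts in KO and 0 in Het, was at least 3.34-fold higher and called (adjusted p = 0.0477), a call lost without any 1 of the Het libraries and without KO replicate 2, 3 or 4 (0.0662 to 0.137), and under 2 other settings (0.0555 and 0.0561). The call of Anxa1 in naive cells was lost without KO replicate 4 (adjusted p = 0.0711) and that of S100a10 in memory cells, at 0.27 ± 0.10, without any 1 of the 8 libraries except KO replicate 1 (0.0523 to 0.114) and under 3 other settings (0.0763 to 0.274). Het memory replicate 3 held all 4 counts of Anxa1 in its group, and without either of these libraries S100a4 in naive and Anxa1 in memory cells were still called. Lgals3 rose in memory cells by 2.92 ± 0.52, and by 4.07 without Het memory replicate 4.

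The spleen subsets show how these genes stand in memory against naive cells of 1 genotype. In WT 5 of the 9 genes were higher in memory cells and 0 lower, where 7.68% of all genes were higher and 7.38% lower. Of the 6 that pass the filter without KO libraries, 4 were higher and 0 lower. S100a6 rose by 4.002 ± 0.40, S100a4 by 2.88 ± 0.64, Anxa2 by 1.90 ± 0.20, Lgals1 by 1.31 ± 0.17 and Anxa6 by 0.31 ± 0.06 on the log2 scale (adjusted p = 1.58e-08, 0.000870, 5.04e-08, 1.18e-06 and 0.000449). Without WT naive replicate 3 the value of S100a6 was 5.32. Anxa6 was thus called between subsets and not between genotypes. Lgals3 had 2.30 ± 0.88 (adjusted p = 0.077), called with DESeq2 (0.0220) and with only the libraries compared (0.0143), and S100a10 had 0.28 ± 0.10 (0.0523), called with the replicate number as a block (0.28, adjusted p = 0.0464), with RLE size factors (0.0496), with estimates without robust shrinkage (0.0430) and without WT memory replicate 3 (0.0203). S100a11 had -0.19 ± 0.40. Anxa1 had 4 counts in WT memory and 0 in WT naive libraries, too few for a fold change.

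In KO cells 7 genes were higher in memory than in naive libraries and 0 lower, where 8.69% of all genes were higher and 8.61% lower. Of the 6 that pass the filter without KO libraries, 5 were higher and 0 lower. The log2 fold changes were 1.24 ± 0.35 for S100a4, 1.47 ± 0.28 for S100a6, 2.07 ± 0.51 for Anxa1, 1.37 ± 0.18 for Anxa2, 0.24 ± 0.06 for Anxa6, 0.95 ± 0.16 for Lgals1 and 2.13 ± 0.46 for Lgals3. The call of S100a4 was lost without KO naive replicate 2 (adjusted p = 0.0590). S100a10, at 0.25 ± 0.10 (adjusted p = 0.0594), was called without KO memory replicate 1 (0.0475) and with estimates without robust shrinkage (0.0491).

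**Figure D4:**
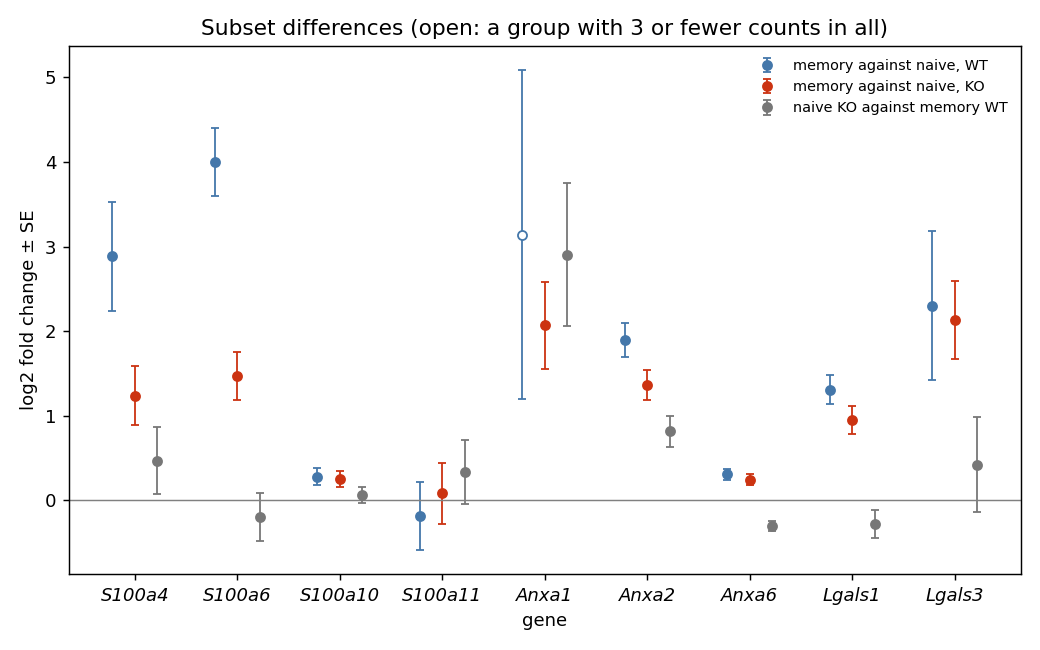
Log2 fold change ± SE (y axis) of each gene (x axis) from naive to memory cells in WT and in KO, and from WT memory to KO naive cells, with an open symbol where 1 of the groups had 3 or fewer counts in all. S100a6 has 4.002 in WT and 1.47 in KO cells, and its KO naive and WT memory levels differ by -0.20.

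KO naive cells were then set against WT memory cells directly. S100a6 was at 22.1 to 48.4 CPM in KO naive and 29.8 to 58.9 CPM in WT memory libraries, a log2 difference of -0.20 ± 0.29 (adjusted p = 0.68). Of the 9 genes, 2 were higher in KO naive cells and 1 lower, where 14.9% and 11.7% of all genes were. Of the 6 that pass the filter without KO libraries, 1 was higher and 1 lower. Anxa2 was higher by 0.82 ± 0.18 (adjusted p = 0.00105) and Anxa1 by 2.90 ± 0.85 (0.00892, and 0.0644 without KO naive replicate 4). Anxa1 had only 4 counts in WT memory libraries. Anxa6 was lower, with a log2 difference of -0.30 ± 0.06 (0.000319). S100a4 (0.47 ± 0.40), Lgals1 (-0.28 ± 0.16), Lgals3 (0.42 ± 0.57), S100a10 (0.07 ± 0.10) and S100a11 (0.34 ± 0.38) were not called, which does not show that their levels are equal.

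The difference between KO and WT cells was compared between subsets as an interaction. From naive to memory cells it fell by 2.53 ± 0.51 on the log2 scale for S100a6 (adjusted p = 0.00412). This was 1 of 9 genes, and 1 of the 6 that pass the filter without KO libraries. Of all genes, 1.12% were called lower and 0.67% higher. The term of S100a6 was not called when the fit held only the libraries compared (adjusted p = 0.0586), and without WT naive replicate 3 the value was -3.85. S100a4 had -1.65 ± 0.77 (adjusted p = 0.46) and Anxa2 -0.53 ± 0.27 (0.57). Between thymus and naive cells 0 of 9 genes were called by edgeR or DESeq2, with 1 at an unadjusted p under 0.05, where 6.34% of all genes were called and 1904 had an unadjusted p under 0.05. With the replicate number as a block Anxa2 was called (0.76, adjusted p = 0.0231).

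Naive spleen cells were also compared with thymic cells. In WT 1 gene was higher in naive cells and 2 lower, where 15.3% and 16.9% of all genes were. Of the 6 that pass the filter without KO libraries, 0 were higher and 2 lower. Anxa2 had a log2 fold change of -1.08 ± 0.22 and Lgals1 of -1.40 ± 0.18 (adjusted p = 0.000280 and 4.01e-07). S100a11 was higher, at 1.58 ± 0.50 (adjusted p = 0.0126), a call lost without WT thymus replicate 3 (0.0676) and without a filter on low counts (0.0734), and without WT thymus replicate 2 its value was 2.31. Lgals3 had -2.26 ± 0.92 (adjusted p = 0.0576), called with DESeq2 (0.0196) and with only the libraries compared (0.0106). In KO cells 1 gene was higher and 3 lower (22.4% and 21.7% of all genes), and of those 6 genes 0 were higher and 2 lower. Lgals3 had -2.89 ± 0.45 and Lgals1 -1.26 ± 0.16 (adjusted p = 2.00e-06 and 2.56e-07), while S100a6 had 0.22 ± 0.29 (0.57). The calls of S100a4 (-0.96 ± 0.36, adjusted p = 0.0257) and Anxa1 (1.79 ± 0.72, 0.0416) were lost without KO thymus replicate 3 (0.158 and 0.0855), among other libraries. Anxa2 (-0.38 ± 0.18, 0.0901) was called without KO naive replicate 3 (-0.62, adjusted p = 0.00394).

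The order of the 9 group levels differed between members. KO memory cells had the highest mean of S100a4, S100a6, S100a10, S100a11, Anxa1 and Anxa2, and KO thymus that of Lgals1 and Lgals3. For S100a6 the order had breaks without overlap between KO memory and all other groups and between KO thymus (29.98 CPM) and WT naive cells (2.16 CPM). For Anxa2 the ranges did not overlap between KO memory and KO thymus, between WT memory and Het thymus, and between WT thymus and Het naive cells. Neighbours in the order of S100a4 and of S100a11 overlapped throughout. Anxa6 was highest in WT memory (1413 CPM) and lowest in WT naive cells (1141 CPM), with no overlap between KO memory and KO thymus. This was no clean gap, as Het naive replicate 2, at 1359 CPM, lay above the lowest KO memory library (1268 CPM). Over the 9 group means, Anxa2 had a Pearson correlation of 0.959 with S100a4, 0.891 with S100a6 and 0.858 with Lgals3, and S100a11 of 0.288, a description in which all genes share the same libraries.

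Of 14 other S100 genes, 13 were in the table and 0 had enough counts to be tested, with S100a13 the most counted at 72. Of 9 other annexin genes 4 were tested, and Anxa4 rose from WT to KO by 1.24 ± 0.38, 2.83 ± 0.44 and 2.60 ± 0.35 in thymus, naive and memory cells (adjusted p = 0.0174, 3.85e-06 and 1.90e-07). The thymus call of Anxa4 was lost without WT replicate 2 (0.157), WT replicate 3 (0.0987) or KO replicate 3 (0.103), and its naive value was 3.79 without WT replicate 2. Anxa5, the phosphatidylserine binder, was lower in KO thymus (-0.45 ± 0.14, adjusted p = 0.0202), a call lost without WT replicate 2 (0.0573), WT replicate 3 (0.0680) or KO replicate 2 (0.0841). In naive cells Anxa5 had -0.36 ± 0.14 (adjusted p = 0.0571), called under 6 alternatives, namely the replicate block (0.0293), only the libraries compared (0.0112), the sex covariate (0.0400), centring (0.00612), and without WT replicate 2 (0.0450) or KO replicate 1 (0.0219). Anxa7 and Anxa11 were not called in any of these comparisons. Of 8 other galectin genes 4 were tested, and Lgalsl, a galectin-like gene, rose by 1.86 ± 0.24, 2.06 ± 0.24 and 1.04 ± 0.20 from WT to KO (adjusted p = 1.91e-07, 1.86e-08 and 8.82e-05) and by 1.57 ± 0.25 from WT naive to WT memory cells (6.51e-06). Lgals4, Lgals8 and Lgals9 were not called.

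Partners of annexin A2 and S100A10 were tested as 4 of a list of 11. Of these 1, 2 and 1 were higher in KO thymus, naive and memory cells and 0 lower, at a median of -0.08, 0.15 and 0.26. Over all genes 11.9%, 11.1% and 12.8% were higher and 6.77%, 7.11% and 9.32% lower. Ahnak rose by 1.18 ± 0.16, 0.82 ± 0.14 and 0.55 ± 0.14 (adjusted p = 3.85e-06, 0.000112 and 0.00585) and by 1.55 ± 0.15 from WT naive to WT memory cells (5.29e-09). Stx4a, a syntaxin, rose in naive KO cells (0.24 ± 0.08, adjusted p = 0.0239), a call lost with centring (0.312) and without 1 of 3 libraries, namely WT naive replicate 1 (0.0642) or 4 (0.0918) or KO naive replicate 2 (0.251). Plgrkt, a plasminogen receptor, fell by 0.80 ± 0.24 from WT naive to WT memory cells, a value of -0.80 (adjusted p = 0.0188, highest 0.130 without WT naive replicate 3). Of 8 receptors of S100 proteins and annexin A1, 2 were tested, Ager and Bsg, with adjusted p of 0.12 to 0.91 in the 4 comparisons.

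Of 13 membrane repair and calpain genes 9 were tested, and 3, 3 and 3 were higher and 0, 0 and 1 lower in KO thymus, naive and memory cells (medians 0.20, 0.18 and 0.04). Over all genes 11.9%, 11.1% and 12.8% were higher and 6.77%, 7.11% and 9.32% lower. Capn2, a calpain catalytic subunit, rose by 0.39 ± 0.09 in thymus (adjusted p = 0.000917), and its naive (0.25 ± 0.08) and memory (0.24 ± 0.08) calls were lost with centring (0.278 and 0.285) and without several single libraries (up to 0.136 without KO naive replicate 3 and 0.112 without KO memory replicate 4). Capns1, the calpain small subunit, rose in naive and memory cells by 0.36 ± 0.08 and 0.42 ± 0.08 (adjusted p = 0.000814 and 4.59e-05), and also with centring. Capn1, another catalytic subunit, rose in memory cells (0.21 ± 0.07, adjusted p = 0.0148), a call lost with centring (0.371) and without WT replicate 2 (0.0604) or 4 (0.0714). Ehd1, an endosomal recycling ATPase, fell in KO memory cells (-0.81 ± 0.11, adjusted p = 3.84e-07), and its call as higher in thymus (0.33 ± 0.12) was lost with centring (0.153) and without WT replicate 1 (0.142), among other libraries. From WT naive to memory cells 2 of the list were higher and 1 lower, where 7.68% and 7.38% of all genes were. The lower gene was again Ehd1 (-0.55 ± 0.11).

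Galectin ligands were tested as 8 of 10. In KO thymus 1 was higher and 2 lower, in naive 3 and 0, and in memory cells 3 and 1 (medians -0.05, 0.07 and 0.18). Over all genes 11.9%, 11.1% and 12.8% were higher and 6.77%, 7.11% and 9.32% lower. Itgb1, the integrin beta-1 chain, rose by 1.87 ± 0.22 in naive and 1.37 ± 0.21 in memory KO cells and by 2.25 ± 0.22 from WT naive to memory cells (adjusted p = 3.67e-07, 1.39e-05 and 1.49e-08), while its thymus call (0.73 ± 0.24, 0.0298) was lost under 6 alternatives, namely with centring (0.0558), without a filter on low counts (0.0676), and without WT replicate 1 (0.0770) or 2 (0.130) or KO replicate 2 (0.0527) or 3 (0.0796). Ptprc (CD45) fell in KO thymus and memory cells (-0.40 ± 0.09 and -0.37 ± 0.08, adjusted p = 0.000890 and 0.000545), with -0.22 ± 0.08 in naive cells (0.0571), where it was called lower under 7 alternatives (0.00404 to 0.0478), among them the replicate block (0.0155). Cd7, a galectin-1 receptor, rose in naive and memory cells (1.49 ± 0.45 and 1.504 ± 0.40, adjusted p = 0.0138 and 0.00378), the naive call being lost without WT replicate 2 (0.0550). Itga5, the integrin alpha-5 chain, fell in thymus (-0.42 ± 0.13, adjusted p = 0.0130, and 0.107 without WT replicate 2) and from WT naive to memory cells (-0.58 ± 0.13, 0.00138). Of 14 glycan enzymes 10 were tested, with 0, 1 and 1 higher and 2, 3 and 2 lower (medians -0.13, -0.03 and -0.05). For these too, the shares over all genes are those given above. St6gal1, whose sialic acid cap on N-glycans blocks binding of galectin-1, fell in all 3 subsets (-0.78 ± 0.12, -0.48 ± 0.11 and -2.02 ± 0.12, adjusted p = 4.78e-06, 0.00168 and 3.26e-17). It rose from WT naive to memory cells (0.51 ± 0.11, adjusted p = 0.000750). Mgat4b, an N-glycan branching enzyme, rose in naive and memory KO cells (0.56 ± 0.13 and 0.76 ± 0.12, adjusted p = 0.00179 and 6.27e-06), and its relative Mgat4a fell in naive KO cells (-0.56 ± 0.17, 0.0182, and up to 0.0851 without WT replicate 2 or 3 or KO replicate 4). St3gal1, a sialyltransferase of O-glycans, fell from WT naive to memory cells (-0.58 ± 0.15, 0.00518).

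All 14 actin and filament genes of motile T cells were tested, with 6, 4 and 6 higher and 1, 5 and 4 lower in KO thymus, naive and memory cells (medians 0.12, -0.14 and 0.09), where 11.9%, 11.1% and 12.8% of all genes were higher and 6.77%, 7.11% and 9.32% lower. Myo1f, a membrane-bound myosin, rose by 2.02 ± 0.14, 1.55 ± 0.12 and 0.60 ± 0.11 (adjusted p = 1.00e-12, 6.28e-12 and 9.87e-05) and from WT naive to memory cells by 1.65 ± 0.12. Lmna, the A-type lamin, rose by 3.12 ± 0.29 in naive and 2.71 ± 0.24 in memory cells and had -0.06 ± 0.26 in thymus (adjusted p = 0.91). Flna, filamin A, rose by 0.58 ± 0.06, 0.25 ± 0.06 and 0.22 ± 0.06, of which the naive and memory calls were lost with centring (0.131 and 0.257). Ezr, ezrin, which links actin to the membrane and was picked after its values were seen, fell in all 3 subsets (-0.28 ± 0.06, -0.34 ± 0.06 and -0.48 ± 0.06, adjusted p = 0.000630, 1.26e-05 and 1.05e-08). Vim, vimentin, had a thymus call (0.27 ± 0.08, adjusted p = 0.0147) that was lost with centring (0.147) and without WT replicate 1 (0.0812) or KO replicate 4 (0.0959), and it rose from WT naive to memory cells by 0.70 ± 0.08 (adjusted p = 2.40e-09).

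Within 250 kb of the members' starts lie 66 other protein-coding genes, of which 32 were tested. In KO thymus, naive and memory cells 5, 3 and 5 of them were higher and 2, 3 and 3 lower, and from WT naive to memory cells 2 and 2. Over all genes 11.9%, 11.1% and 12.8% were higher and 6.77%, 7.11% and 9.32% lower in KO cells. From WT naive to memory cells these shares were 7.68% and 7.38%, so the neighbours' counts are near the background. Next to Lgals1 on chromosome 15, H1f0, a replacement linker histone, rose by 2.34 ± 0.26, 1.43 ± 0.22 and 1.41 ± 0.21, and Card10, a scaffold of NF-kB signalling, rose by 4.18 ± 0.51 in memory cells and was also called higher in thymus and naive cells, where WT libraries held too few reads to give a fold. Gcat rose by 4.202 ± 0.55 in thymus (5.40 without WT replicate 2), and by 0.96 ± 0.30 in memory cells, a call lost without 1 of 3 libraries (highest adjusted p 0.0635 without KO replicate 3). Cdc42ep1 rose in memory cells (4.25 ± 0.74, with few reads in WT libraries) and Triobp in naive and memory cells (0.28 ± 0.08 and 0.38 ± 0.08, the first lost with centring at 0.137), while Sh3bp1 fell in both (-0.28 ± 0.08 and -0.22 ± 0.08, the second lost without any 1 of 6 libraries, at 0.175 without WT replicate 3). Near S100a4 and S100a6, Ints3 (0.20 ± 0.07) and Ilf2 (0.27 ± 0.09) rose in thymus, and neither was called with centring (0.464 and 0.223). Near Anxa6, Tnip1 fell in all 3 subsets (-0.35 ± 0.08, -0.33 ± 0.07 and -0.31 ± 0.07), as did Cdc42se2 (-0.28 ± 0.09, -0.38 ± 0.09 and -0.26 ± 0.09, with the thymus and memory calls lost without KO replicate 1 at 0.121 and 0.123).

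Among the 5 genes whose pattern over the 9 group means was most like the mean pattern of the members were Ttc39c (Pearson r = 0.982), B4galt5 (0.976), Farp1 (0.968) and Adap1 (0.966). Log2 CPM of Ttc39c was -1.998 in WT naive, 1.51 in KO naive, 1.36 in WT memory and 4.598 in KO memory cells. These 4 recurred with a prior count of 0.5, and 1 of them, B4galt5, when genes below a mean log2 CPM of 3 were left out.

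Some sums over marker lists differed between groups. The 4 memory markers Cd44, Il2rb, Eomes and Cxcr3 summed to 135 to 227 CPM in KO naive and 54.0 to 76.5 CPM in WT naive libraries, and to 51.6 to 70.4 against 15.5 to 21.6 CPM in thymus. Eomes, with 41553 counts in all beside 1252 to 5555 for each of the others, made up most of this sum. KO naive replicate 3 had the highest memory sum of its group and the highest level of 5 of the 9 genes. Without it S100a10 and Lgals3 lost their naive calls, and the other 5 genes kept theirs.

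The 12 natural killer and innate-like markers summed to 5.65 to 15.0 CPM in KO and 2.24 to 3.73 CPM in WT thymus, and to 8.82 to 14.5 against 0.866 to 6.34 CPM in naive libraries. Of these 4 were tested and 1, Zbtb16, was higher in both subsets, while Ncr1, Klrb1a, Trdc and Il23r were at 0 in all 35 libraries. Zbtb16 had the most counts of the list, 824 in all, followed by Klrk1 with 499. The median log2 fold change of the 4 tested genes was 0.99 in thymus and -0.35 in naive cells. Of all genes tested, 11.9%, 11.1% and 12.8% were higher in KO thymus, naive and memory cells and 6.77%, 7.11% and 9.32% lower. Of 24 myeloid markers 8, among them S100a8, S100a9 and Ngp, were at 0 in all 35 libraries, and the list summed to 0.666 to 8.16 CPM in 34 libraries and 15.4 CPM in KO naive replicate 4. In thymus it summed to 1.78 to 5.78 CPM in KO and 0.666 to 1.92 CPM in WT libraries, with 1 of 3 tested genes, Cebpb, called higher (adjusted p = 0.0267, and up to 0.176 without WT replicate 2). The 12 B cell markers summed to 15.4 to 26.3 CPM in KO and 7.73 to 17.3 CPM in WT thymus, with 1 of 10 tested genes, Cd79b, called higher (adjusted p = 0.0111, and 0.0788 without WT replicate 3), and were highest in KO naive replicate 4, at 261 CPM. KO naive replicate 4 also had the highest level in its group of 3 of the 9 genes, S100a4, Anxa1 and Lgals3. Without it Lgals3 lost its naive call against WT (adjusted p = 0.0799). Anxa1 lost its calls against Het naive (0.0711) and WT memory cells (0.0644). The other genes called between KO and WT naive cells kept their calls. The 7 CD4 and regulatory T cell markers summed to 16.1 to 26.2 CPM in KO and 7.85 to 12.2 CPM in WT memory cells, of which Zbtb7b was higher and Ctla4 lower, the latter lost without WT replicate 4 (0.110) or KO replicate 1 (0.0628). In naive cells the list summed to 4.05 to 11.8 against 1.08 to 4.60 CPM, with 1 of 3 tested genes called higher. The median log2 fold change of the 3 tested genes was 0.91 in naive and -0.77 in memory cells. Zbtb7b held 1491 counts in all, beside 15 for Cd4. The 12 stromal markers summed to 8.72 to 11.4, 10.9 to 14.8 and 7.19 to 10.7 CPM in KO and 5.69 to 8.39, 3.68 to 5.87 and 2.41 to 4.39 CPM in WT thymus, naive and memory cells, with Pdgfrb the 1 gene called, and Dcn at 0 throughout. The 10 heat shock and sorting stress genes summed to 1654 to 2493 CPM in KO and 1517 to 1926 CPM in WT thymus, where Hspd1 (0.76 ± 0.10), Hsp90aa1 (0.93 ± 0.16) and Hspa8 (0.38 ± 0.11) were called higher and Junb (-0.61 ± 0.17) lower. The call of Hspa8 was lost under 6 alternatives (up to 0.302 with only the libraries compared).  The part of these cells in the results above was not tested, and because some abundant transcripts have few counts here, a marker at 0 does not show that the cells were absent.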

How the data were processed

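RNA of sorted CD8 T cells was sequenced as strand-specific libraries with 65-base single reads, per the labels' protocols. TopHat2 2.1.0, TopHat and HTSeq 0.9.1 are named in the submitters' processing notes, with GRCm38 and mm10 as builds. The strand setting of the counting is not given in the sources used here. The deposited values are raw counts per Ensembl gene. GENCODE M21 gave symbols and positions.

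edgeR 4.0.16 in R 4.3.3 fitted group means over all 35 libraries (filterByExpr, minimum count 10, 10296 genes, TMM scaling, robust quasi-likelihood, residual df 26). The two-sided p-values were adjusted over all genes by Benjamini-Hochberg, with calls under 0.05. The SE is the size of the log2 fold change divided by the root of its F statistic. Low-count ratios have exact 95% intervals, and floors are 3 counts over a group. Intervals cover counting error only.

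Members and lists were chosen with earlier results of these data known. All 9 members, up to 4 called genes per other list by lowest adjusted p, tested family members, called neighbours and 4 of the 5 most similar genes are named. Ezr, picked after its values were seen, is named beyond the 4 of its list. Some items that these rules cover are not reported here. Marker lists are given as sums, with called genes named where they move with a result. Equally numbered libraries deviated together, with every correlation over 0.1, for memory against naive WT (0.206 to 0.31) and KO against Het naive (0.144 to 0.262), a pairing read from the data. Some comparisons fell just short of that cut, among them memory against naive KO (0.0995 to 0.322) and KO against WT naive (0.0817 to 0.287). KO against WT thymus had -0.19 to 0.08. Shared deviations are thus not limited to the comparisons over the cut. Alternatives were RLE scaling, no or a stricter filter, non-robust shrinkage, DESeq2 1.42.0, a fit of only the compared groups, the replicate block, a sex covariate, centring on the mean log level and each replicate left out. No duplicated library was found among replicates.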

Additional observations from a re-analysis of the deposited data

Results flagged for a closer look

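In 5 of 70 groups of 4 libraries with a testable spread, 1 library stood apart from the other 3 by Dixon's criterion. Chance gives this in about 1 of 20 groups of normally distributed values, a rate that does not hold for a few counts. The groups of S100a4, Anxa1 and Lgals3 named below held 3, 4 and 14 counts. S100a6 was 5.87 CPM in WT naive replicate 3 and 37.0 CPM in KO thymus replicate 3, above the other libraries of each group. In Het naive replicate 4, S100a4 was 0.276 CPM, with 0 in the other 3 libraries, and Lgals3 was 1.10 CPM. Anxa1 was 0.493 CPM in Het memory replicate 3, with 0 in the other 3.

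The difference of S100a6 between KO and WT cells was smaller in memory than in naive cells by an interaction term of -2.53 on the log2 scale, from edgeR.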

How the results depend on the processing

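Of 61 member results called, 49 kept their call under every alternative. Between KO and WT cells these were 16 of 19, the others being S100a10 in naive and memory cells and Lgals3 in naive cells. No called value changed sign. The interaction between thymus and naive cells called 1 member with the replicate block in place of 0. The interaction between naive and memory cells called 0 with only the libraries compared in place of 1. The block also called Lgals3 (-2.51, adjusted p = 0.0246) in naive against thymus WT and Anxa2 (-0.40, adjusted p = 0.0141) in naive against thymus KO cells. Beside these and the values above, it changed no call of a member. Deviations of equally numbered libraries correlated at -0.124 to 0.195 in this WT and 0.0542 to 0.262 in this KO comparison. By sex-linked transcripts, WT replicate 3 was male in thymus and female in naive cells, while equally numbered KO libraries shared their sex. Whether the numbers pair the KO libraries was not tested. The cause of the changed calls was not tested. Counts of a few reads limit S100a4, S100a11, Anxa1 and Lgals3.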
